A study of Mus musculus with 2 samples.

Results

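The potassium channel genes were taken as every mouse gene whose symbol starts with Kcn, which gave 99 of the 32285 mouse genes in the 2 deposited count matrices. They comprised 40 voltage-gated pore subunits, 14 two-pore leak channels, 15 inward rectifiers, 8 calcium- or sodium-activated channels, 17 auxiliary or regulatory subunits and 5 noncoding or antisense transcripts. In the kept cells 45 of them reached 100 UMIs (unique molecular identifiers, each 1 tagged transcript) over both libraries and are described here, 48 had 1 to 99 UMIs and 6 had none. The last gene to reach the threshold was Kcnq1 with 113 UMIs, and the first below it was Kcnmb2 with 88.

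The tissue was brain carrying an implanted GL261 tumour, a mouse glioma cell line, harvested at day 24 and dissociated for 10x Genomics 3' single-cell sequencing. One library came from mice labelled C57BlL6 WT and the other from mice labelled Cacna1H-/- or Cav3.2KO, which lack the pore subunit of a low-voltage-activated calcium channel. The same tumour line was used for both, so the genotype label concerns the host cells. The sources used here do not give how many animals stood behind each library, nor their sex or age. With 1 library per group there was no test between the labels, and every interval given here covers counting error at 95% confidence and not variation between animals.

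After filtering, the library labelled wild type kept 3110 cells with 52031677 mouse UMIs and the library labelled knockout 6575 cells with 100764971, with medians of 12522.5 and 11071 UMIs per cell. Over all kept cells, tumour cells included, the targeted gene went against the label. Cacna1h had 13 UMIs in the library labelled wild type and 168 in the library labelled knockout, 0.250 and 1.67 CPM (the UMIs of a gene per 1000000 mouse UMIs of the cells summed), a 6.67-fold difference (3.80 to 12.8). The sources used here do not say which part of the gene was deleted, and 3' tags outside it check nothing. The sum also mixes host cells with tumour cells, which the genotype label does not concern. It was not made for host cells alone. Groups are therefore named by their labels throughout. Host cells also differed in sex-linked transcripts: Xist stood at 0.719 and 588 CPM, and 4 Y-linked genes together at 260 and 54.4. The libraries shared 7 cell barcodes among kept cells. Classes were gated on marker genes, none of them a Kcn gene, and are called by the name of those markers followed by "-like". In the tumour-like class all 12 of its markers stood above the remaining cells in both libraries, as did all 13 T cell markers, all 10 NK cell markers and all 9 microglia markers in theirs.

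Potassium channels let potassium leave the cell and so hold the membrane at a negative potential. Voltage-gated pores open on depolarization, calcium- and sodium-activated pores follow the ions inside the cell, inward rectifiers clamp the resting potential and clear extracellular potassium, and two-pore channels carry the background leak. In lymphocytes the potassium efflux maintains the driving force for calcium entry, in microglia it sets the resting potential and process surveillance, and in glia it buffers potassium released by neurons.

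The regions just upstream of Kcnn4, highest in T cell-like cells among the 8 classes with 50 cells or more in each library, and of Kcnk13, highest among them in microglia-like cells, are shown as those of 2 genes with a leading level in 1 class each. They are the 250 bases before each start in RefSeq on GRCm38.p6, 5′ to 3′ on the gene's strand, and 35 of the 45 described genes had such an entry. Kcnn4 lies on the plus strand at chr7:24370263-24386690 and its upstream window at chr7:24370013-24370262. Kcnk13 lies on the plus strand at chr12:99964499-100062682 with its window at chr12:99964249-99964498. Capitals mark matches to the motifs searched.
Kcnn4: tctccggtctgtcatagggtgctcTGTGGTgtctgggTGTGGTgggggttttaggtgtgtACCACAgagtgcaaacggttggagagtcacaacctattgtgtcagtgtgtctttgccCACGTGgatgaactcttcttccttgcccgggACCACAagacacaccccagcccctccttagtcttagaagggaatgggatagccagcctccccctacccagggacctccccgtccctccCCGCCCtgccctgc
Kcnk13: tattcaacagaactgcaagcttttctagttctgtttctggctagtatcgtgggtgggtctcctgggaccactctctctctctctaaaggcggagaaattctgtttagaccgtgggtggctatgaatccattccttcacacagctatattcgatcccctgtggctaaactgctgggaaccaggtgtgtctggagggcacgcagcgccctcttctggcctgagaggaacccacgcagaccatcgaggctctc
Both strands were searched for 9 motifs. The immune-related ones were the PU.1 site written as GAGGAAGT, the shorter site of the wider ETS family as CCGGAAG, the site of the AP-1 factors as TGACTCA, that of the NFAT factors as GGAAAA and that of the RUNX factors as TGTGGT. The general ones were the GC box with the letters GGGCGG, the TATA box with the letters TATAAA, the cyclic AMP response element with TGACGTCA and the E-box with CACGTG. The Kcnn4 window held 4 RUNX matches, 2 on each strand, starting 226, 213, 190 and 102 bases before the start, an E-box at 133 and a GC box at 14, and none of these overlapped. A RUNX match occurs in 14% of all 32851 windows of the same length, an E-box in 6.02% and a GC box in 32.7%. The Kcnk13 window, at 52.8% GC against 58.8% for Kcnn4, held none of the 9 motifs. These matches are letters in a window and say nothing of a factor's binding.

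Levels are in CPM of a class in 1 library, with no division by length because the protocol tags transcripts at the 3' end. Whether intronic tags were also counted is not given for any gene, and an effect of gene length was not tested. Of the 77256 UMIs of all members, 40529 belonged to Kcnq1ot1 and Kcnq5. A class was said to hold a gene where its CPM was at least 5 and at least 20% of the highest class of that library. This had to be met in both libraries, and was asked of the 8 classes with 50 cells or more in each. The highest class was taken among all classes with 50 cells or more in that library. Under the knockout label these were 10, as oligodendrocyte-like and neuroblast-like cells were included. By this rule 27 of the 45 genes were held by no class, 10 by 1, 1 by 2 and 7 by 3 or more. Microglia-like cells held 8 of the 45 (52.4% of all 15767 genes with 100 UMIs or more met the rule there), T cell-like cells 7 (50.9%), NK cell-like cells 6 (47.8%), B cell-like cells 5 (43.3%), tumour-like cells 5 (56.5%), monocyte/macrophage-like cells 3 (48.2%), plasmacytoid dendritic-like cells 3 (46.1%) and dendritic-like cells 2 (46.3%). The same class was highest in both libraries for 29 of the 45 genes, against 68.8% of all genes.

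**Figure D1:**
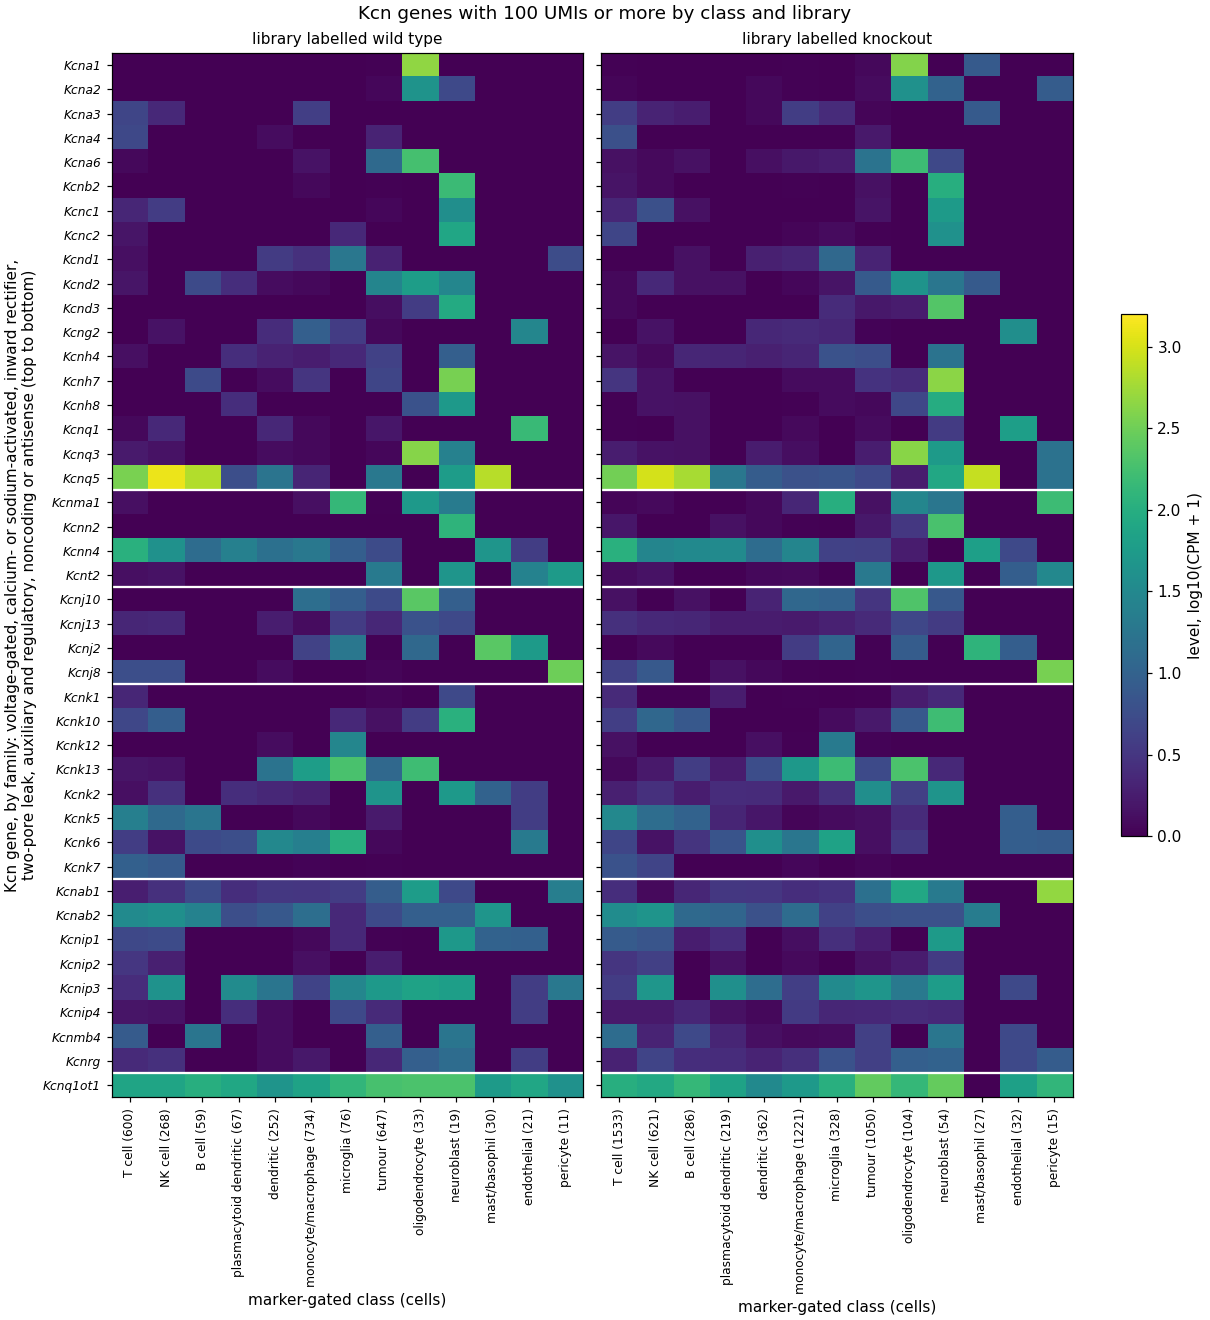
Levels of the described Kcn genes that are reported here (rows, by family) in 13 marker-gated classes (columns, with cell numbers) in the library labelled wild type (left) and the library labelled knockout (right), as log10(CPM + 1). Kcnq5 is bright in the NK cell, B cell, T cell and mast/basophil columns, Kcnk13 in microglia and oligodendrocyte, and Kcnh7 in neuroblast, in both panels.

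T cell-like, NK cell-like and B cell-like cells all held Kcnq5, Kcnab2 and Kcnk5, and the first pair of classes also held Kcnn4. Kcnq5, a subunit of the slowly activating M-type channel best known from neurons, stood at 1280 CPM (1234 to 1327) and 991 CPM (962 to 1021) in NK cell-like cells, the library labelled wild type being given first here and below. B cell-like cells had 674 CPM (575 to 787) and 601 CPM (571 to 633), and T cell-like cells 357 CPM (342 to 373) and 325 CPM (317 to 334). The order NK, B, T was the same in both libraries and neighbouring intervals did not overlap. Mast/basophil-like cells, 30 and 27 in number, had 708 CPM (560 to 884) and 817 CPM (675 to 980), which overlapped B cell-like cells in the first library and NK cell-like cells in the second. Monocyte/macrophage-like cells, at 1.14 and 5.18 CPM, give the level read here as background. Kcnq5 spans 563.5 kb at chr1:21398403-21961942 on the minus strand, and the sources used here do not say whether intronic tags were counted.

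Kcnn4, the intermediate-conductance calcium-activated channel that sustains calcium entry in activated T cells, was at 106 CPM (97.3 to 114) and 105 CPM (100 to 110) in T cell-like cells. In NK cell-like cells it was at 40.7 CPM (32.8 to 50) and 27.6 CPM (23 to 32.9), in plasmacytoid dendritic-like cells at 24.1 and 32.5 CPM and in monocyte/macrophage-like cells at 18.2 and 27.5 CPM. T cell-like cells were therefore above every other of the 8 classes in both libraries, and NK and plasmacytoid dendritic-like cells overlapped in their intervals. Plasma cell-like cells, which were too few for the rule, had 10 UMIs in 2 cells and 79 UMIs in 27 cells, the latter giving 115 CPM (90.9 to 143). Tumour-like cells had 4.40 and 3.02 CPM.

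Kcnab2, a beta subunit that binds voltage-gated Shaker-type pores, was at 32.9 CPM (28.4 to 37.9) and 35.2 CPM (32.4 to 38.1) in T cell-like cells. NK cell-like cells had 38.5 CPM (30.9 to 47.5) and 43.7 CPM (37.8 to 50.2), and the intervals of both classes overlapped in each library. Kcnab2 was not particular to lymphocytes, as monocyte/macrophage-like cells also held it, at 13.2 CPM (11.1 to 15.4) and 12.7 CPM (11.1 to 14.4). The gene overlaps Nphp4 on the opposite strand. The strand setting of the counting is not given, so whether reads of these genes were told apart is not known here. Kcnk5, an acid- and volume-sensitive leak channel, was at 22.8 CPM (19.1 to 27.1) and 30 CPM (27.5 to 32.7) in T cell-like cells and at 11.5 and 13.0 CPM in NK cell-like cells, against 0.176 and 0.103 CPM in monocyte/macrophage-like cells. Kcna3, the voltage-gated channel long studied in T cells, was low at 3.63 CPM (2.25 to 5.55) and 2.80 CPM (2.07 to 3.71) in T cell-like cells. Monocyte/macrophage-like cells had as much Kcna3, 2.90 and 2.82 CPM.

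Smaller signals completed the lymphocyte profile. Kcnk7, a two-pore family member not known to form a working channel alone, was at 8.65 and 5.31 CPM in T cell-like cells and at 7.08 and 3.53 CPM in NK cell-like cells. Kcnmb4, the beta subunit of the large-conductance calcium-activated channel typical of brain, was at 7.27 and 12.4 CPM in T cell-like cells, whose pore partner Kcnma1 had 2 UMIs there in each library. Kcnk10, a mechanosensitive leak channel, was at 7.97 and 10.6 CPM in NK cell-like cells.

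T cell subsets, gated by their own markers, had different levels of 4 genes. Kcna4, a rapidly inactivating voltage-gated channel, was at 14.7 CPM (6.71 to 27.9) and 14.4 CPM (10.3 to 19.5) in regulatory T cell-like cells and at 0.642 and 1.20 CPM in the CD8 subset, where its upper limits were 2.32 and 2.48 CPM. The CD4 subset lay between them at 9.36 and 4.05 CPM. Kcnk5 was lower in the regulatory than in the CD4 and CD8 subsets in CPM, with 9.79 CPM (3.59 to 21.3) and 6.65 CPM (4 to 10.4) in the regulatory subset against 26.0 CPM (20.6 to 32.3) and 27.7 CPM (23.6 to 32.3) in the CD8 subset, the intervals just overlapping in the first library. The CD4 subset had 25.5 CPM (17.2 to 36.4) and 52.7 CPM (46.8 to 59.2). Kcnj8, the pore of an ATP-sensitive inward rectifier, was at 8.02 CPM (5.19 to 11.8) and 5.503 CPM (3.76 to 7.77) in the CD8 subset, and had no UMI in the regulatory subset of either library, with upper limits of 6.02 and 1.29 CPM, the first of which overlapped the CD8 interval. Kcnk1, a leak channel, was counted mostly in the type 17 and gamma delta subset of T cells, with 6 and 16 UMIs in 16 and 60 cells (61.8 and 31.5 CPM) against 1 UMI in the other three together in each library.

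Microglia-like cells held 8 of the 45 genes, where 52.4% of all genes met the rule. Kcnk13, the leak channel that sets the microglial resting potential, was at 191 CPM (160 to 225) and 153 CPM (141 to 166). Kcnma1, the large-conductance calcium-activated pore, was at 136 CPM (111 to 166) and 101 CPM (91.4 to 111), and Kcnk6, a leak channel linked in mouse macrophages to potassium efflux before inflammasome assembly, at 103 CPM (81.5 to 129) and 69.3 CPM (61.4 to 77.9). Lower levels were seen for Kcnk12, the silent relative of Kcnk13, at 28.6 and 19.5 CPM, for Kcnd1, an A-type pore, at 17.7 and 11.1 CPM and for Kcnj2, a strong inward rectifier, at 17.7 and 9.65 CPM. These 6 genes were each higher under the wild type label in CPM, but with 76 and 328 cells the class was too small for the comparison between labels.

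Monocyte/macrophage-like cells shared Kcnk13 and Kcnk6 with microglia-like cells at lower levels and had Kcnq1ot1 at 68.5 and 52.9 CPM. The third gene they held was Kcnab2, at 13.2 and 12.7 CPM. Kcnk13 was at 60.04 CPM (55.6 to 64.7) and 50.3 CPM (47.2 to 53.6), below microglia-like cells in both libraries, and Kcnk6 at 22.8 and 16.99 CPM. Kcnma1 was at 0.351 and 1.18 CPM there and Kcnk12 had 0 and 1 UMI. Among the subsets, Kcnk13 was at 27.5 CPM (19.9 to 37.1) and 24.4 CPM (19.6 to 30.04) in monocytes, and higher in Arg1-marked macrophages, at 67.5 and 48.8 CPM, and in Mmp12-marked macrophages, at 71.9 and 64.6 CPM. Kcnj10, the inward rectifier that clears potassium in glia, was at 13.3 CPM (11.3 to 15.6) and 10.6 CPM (9.23 to 12.2).

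Dendritic-like cells held Kcnk6 at 30.2 CPM (25 to 36.3) and 38.4 CPM (33.3 to 44.0), with Kcnip3 below it at 16.4 and 13.0 CPM. The mature subset had the highest Kcnk6, at 79.5 CPM (60.5 to 103) and 68.4 CPM (57.2 to 81.1), against 16.1 and 15.3 CPM in type 1 dendritic cells. Kcnk13 had the reverse order, with 1.35 and 1.55 CPM in mature and 21.4 and 8.48 CPM in type 1 dendritic cells. Plasmacytoid dendritic-like cells held Kcnip3 at 33.7 and 37.9 CPM beside Kcnn4.

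**Figure D2:**
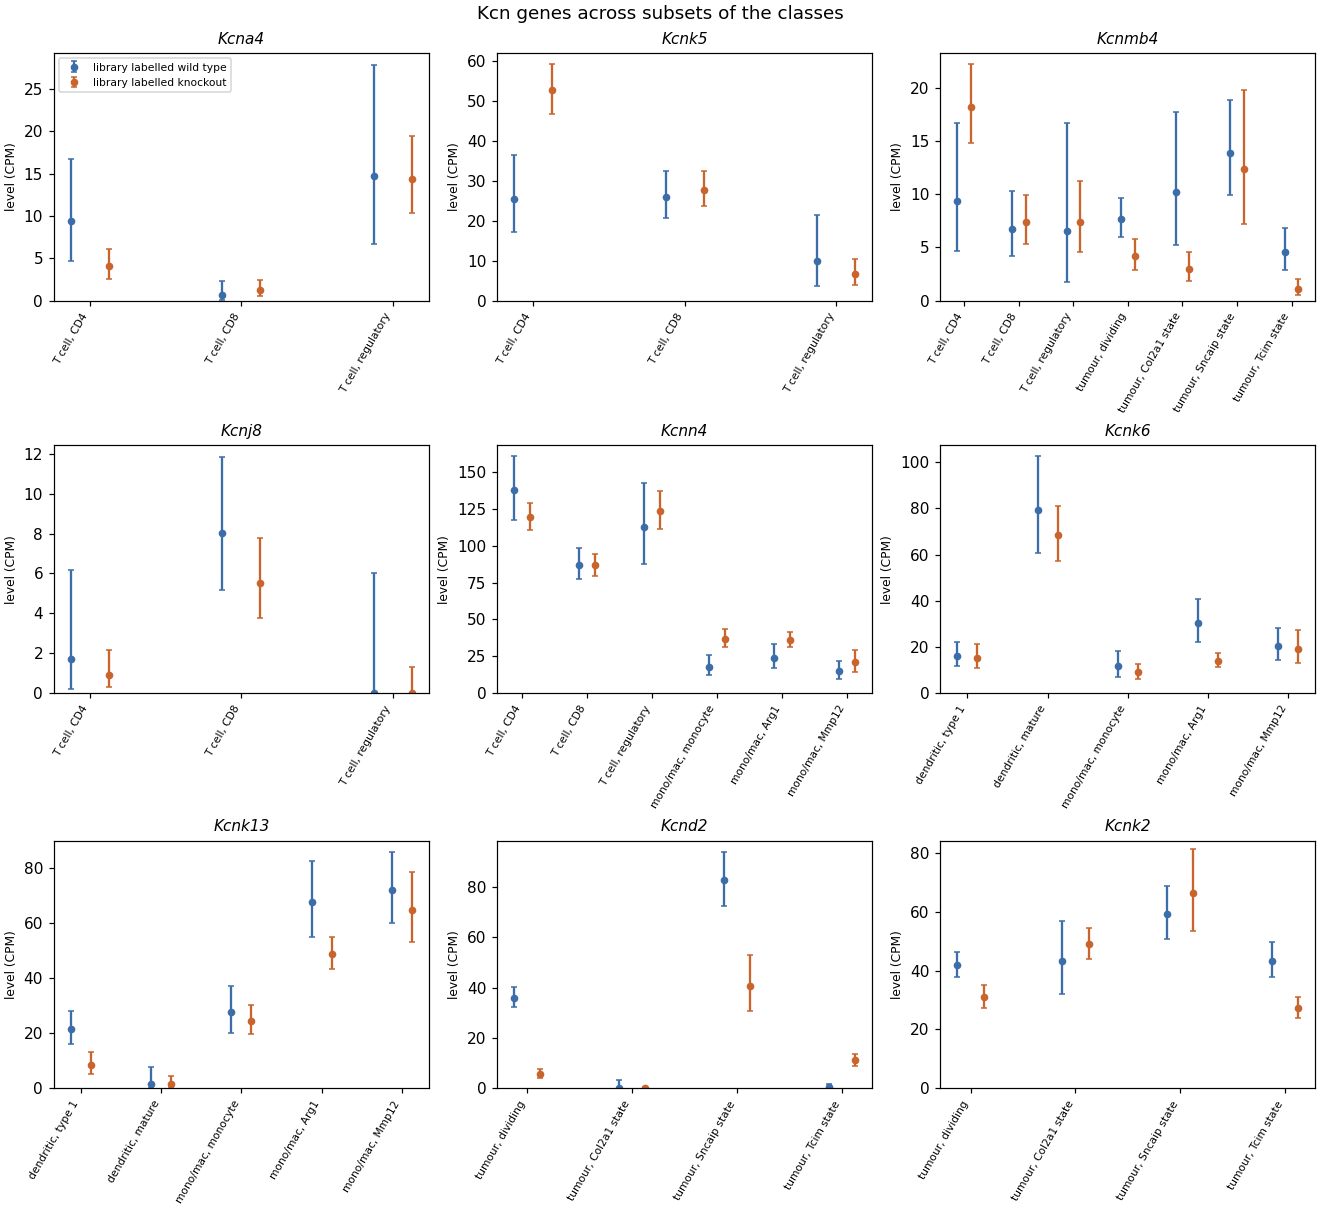
Levels (CPM) of 9 Kcn genes in subsets of the T cell, dendritic, monocyte/macrophage and tumour classes, with points for each library and bars for 95% Poisson intervals of counting error. Kcnk6 is highest in mature dendritic cells, at 79.5 and 68.4 CPM, and Kcna4 in regulatory T cells, at 14.7 and 14.4 CPM, in both libraries.

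Tumour-like cells held Kcnk2, Kcnt2 and Kcnip3, which neuroblast-like cells carried at similar or higher levels. Kcnk2, a leak channel opened by membrane stretch and lipids, was at 44.8 CPM (42.0 to 47.8) and 37.1 CPM (35.0 to 39.3), against 0.346 and 0.934 CPM in T cell-like cells, 53.6 CPM (28.5 to 91.6) and 44.6 CPM (30.9 to 62.4) in neuroblast-like cells and 141 and 194 CPM in the 4 and 16 astrocyte-like cells. Kcnt2, a sodium-activated channel, was at 20.1 CPM (18.2 to 22.1) and 18.9 CPM (17.4 to 20.4), below the 45.3 CPM (22.6 to 81.1) and 49.9 CPM (35.3 to 68.5) of neuroblast-like cells. Kcnip3, a calcium sensor that binds A-type pores and also acts in the nucleus, was at 50.8 CPM (47.8 to 53.9) and 45.7 CPM (43.3 to 48.0) in tumour-like cells, and NK cell-like cells overlapped with them at 42.1 and 47.7 CPM, while neuroblast-like cells had 61.8 and 57.8 CPM and T cell-like cells 1.56 and 2.68 CPM. Kcna6, a Shaker-type pore, was at 11.4 and 15.5 CPM in tumour-like cells and far higher in oligodendrocyte-like cells, at 177 and 157 CPM.

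The noncoding transcript Kcnq1ot1, an imprinted antisense RNA at chr7:143203458-143296549, was counted in every class with 50 cells or more. In the library labelled wild type it ranged from 44.9 CPM (dendritic-like) to 186 CPM (tumour-like), and in the library labelled knockout from 31.9 CPM (dendritic-like) to 278 CPM (neuroblast-like, with tumour-like cells at 267 CPM). Within the tumour, dividing cells had 128 and 189 CPM and the Col2a1-marked state 366 and 328 CPM. It lies within Kcnq1, a slow delayed rectifier, on the other strand. Kcnq1 was at 0.561 and 0.249 CPM in tumour-like cells, and without the strand setting reads of these overlapping genes are uncertain.

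Sparser classes of the brain itself led in other members. Oligodendrocyte-like cells, 33 and 104 in number, carried Kcna1, a Shaker-type pore, at 472 CPM (404 to 548) and 401 CPM (368 to 437), and Kcnq3, an M-type subunit, at 409 CPM (346 to 480) and 427 CPM (393 to 464). They also carried Kcnj10 at 243 and 207 CPM, Kcnk13 at 161 and 198 CPM and Kcna2, another Shaker-type pore, at 43.7 and 40.6 CPM. Under the knockout label they held 13 of the 45 genes (54.8% of all genes met the rule). Kcna1 in tumour-like cells had 1 and 5 UMIs.

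Neuroblast-like cells, 19 and 54 in number, held 21 of the 45 under the knockout label (58% of all genes). Kcnh7, a pore of the erg family, was at 346 CPM (276 to 429) and 443 CPM (397 to 492), Kcnn2, a small-conductance calcium-activated channel, at 120 and 190 CPM, and Kcnd3, an A-type pore, at 90.7 and 222 CPM. Kcnk10 was at 107 and 160 CPM, Kcnb2, a delayed rectifier, at 152 and 101 CPM, Kcnh8 at 53.6 and 95.9 CPM and Kcnip1, an A-type accessory subunit, at 49.5 and 55.2 CPM. The fast delayed rectifiers Kcnc1 and Kcnc2 were at 37.1 and 53.8 CPM and at 78.3 and 40.7 CPM. Kcnh7 overlaps Gca, Kcnip1 overlaps Kcnmb1 and Kcnd3 overlaps Kcnd3os on the opposite strand, so their levels are uncertain to that extent, and 28 of the 45 genes overlap another annotated gene of some kind.

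Vascular and other rare cells led in further members. Kcnj8 was at 313 CPM (244 to 396) and 352 CPM (259 to 468) in pericyte-like cells, 11 and 15 in number, against 4.87 and 6.84 CPM in NK cell-like cells. Kcnab1, another beta subunit, was at 22.7 CPM (7.37 to 53.0) and 479 CPM (369 to 612) in the same few cells, which did not overlap. Kcnq1 was at 145 CPM (108 to 190) and 61.3 CPM (34.3 to 101) in endothelial-like cells, 21 and 32 in number. Kcnj2 was at 236 CPM (154 to 346) and 120 CPM (69.7 to 192) in mast/basophil-like cells. In 4 and 16 astrocyte-like cells Kcnk1 was at 202 and 198 CPM, and Kcnd2 led under the knockout label at 649 CPM. Kcnip2, Kcnip4 and Kcnj13, 2 accessory subunits of A-type pores and an inward rectifier, stayed at or below 4.08 CPM in every class with 50 cells or more.

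**Figure D3:**
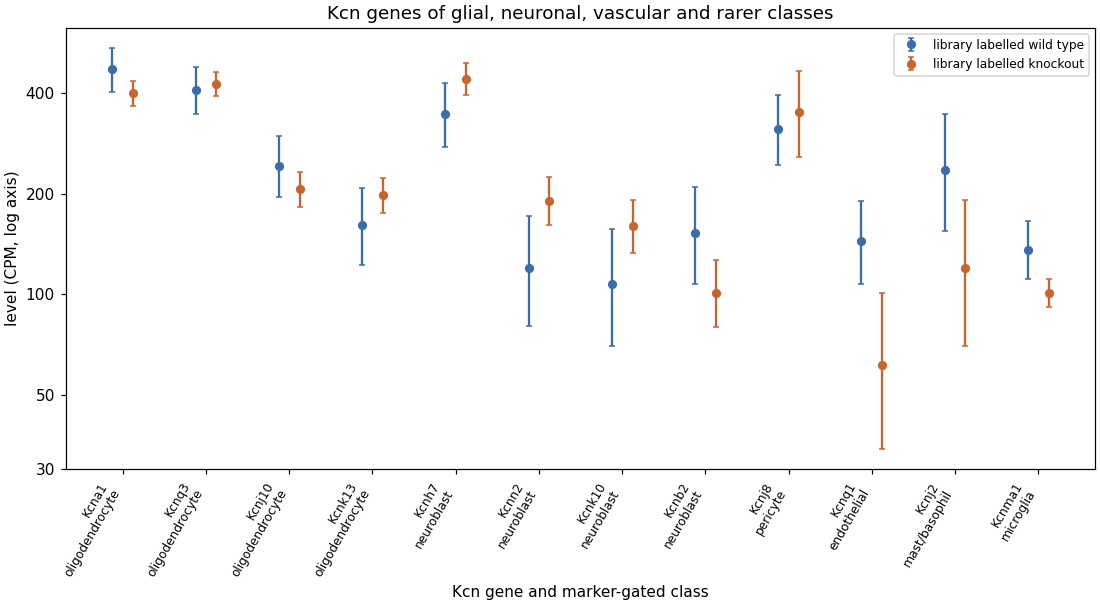
Levels (CPM, log axis) of 12 gene and class pairs in the oligodendrocyte, neuroblast, pericyte, endothelial, mast/basophil and microglia classes, with 95% Poisson intervals of counting error and 1 colour per library. The intervals of the 2 libraries overlap for Kcnj8 in pericytes (313 and 352 CPM) and do not for Kcnq1 in endothelial cells (145 and 61.3 CPM).

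The labels were compared within the 5 classes that had 100 cells or more in each library, for genes with 100 UMIs or more in the class, which gave 44 pairs of 23 members and a class. By size alone, at 1.5-fold, 7 pairs were higher and 9 lower under the knockout label, and the counting interval of each of the 16 excluded no difference. The most members were called in tumour-like cells, 3 higher (11.3% of all 12576 genes measured there) and 6 lower (7.05%) of 17, with a median log2 ratio of -0.16 against 0.014 for all genes. T cell-like cells had 2 higher (5.15%) and 1 lower (2.44%) of 9, with medians of 0.35 and -0.015, and monocyte/macrophage-like cells 2 higher (7.22%) and 1 lower (5.15%) of 8, with medians of -0.29 and -0.025. Dendritic-like cells had none higher (7.62%) and 1 lower (7.83%) of 5, and NK cell-like cells none of 5 in either direction (7.28% and 7.95%). In 6 of the 16 pairs the level was under 20% of that in the highest other class. These were Kcnq5 in the tumour, dendritic and monocyte/macrophage classes, Kcnk13 and Kcnab1 in the tumour class and Kcnip1 in the T cell class. This share was taken in the library where the gene was higher, among classes with 50 cells or more there. For lower pairs it thus left out oligodendrocyte-like and neuroblast-like cells. In that library tumour-like cells had Kcnh7 at 3.70 CPM against 346 CPM in neuroblast-like cells. Kcnj10 was at 4.30 CPM against 243 CPM in oligodendrocyte-like cells, so these 2 pairs were also far below a smaller class.

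**Figure D4:**
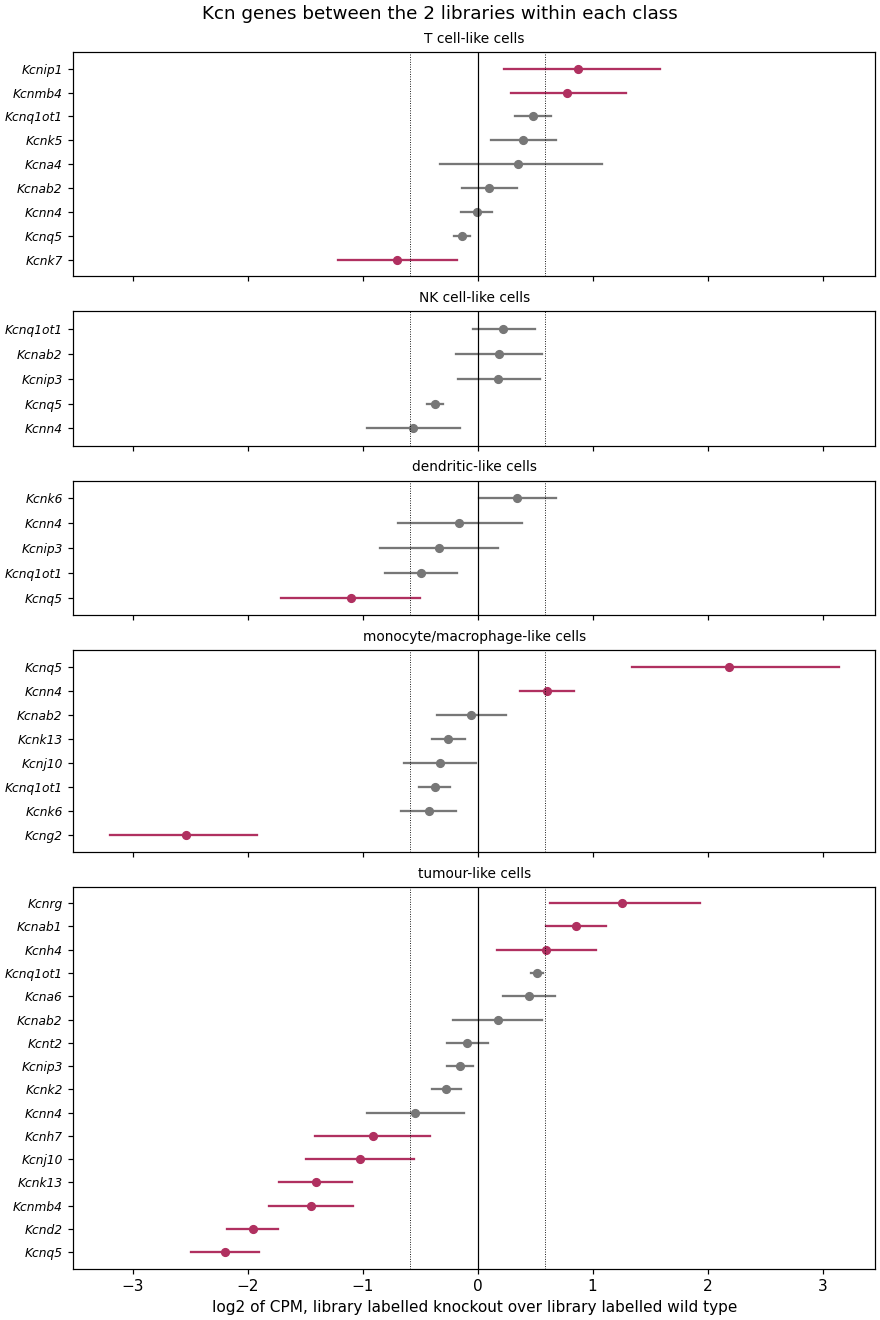
Log2 ratio of CPM, library labelled knockout over library labelled wild type, for the pairs of Kcn gene and class that are reported here, with exact 95% intervals of counting error. Coloured pairs pass the 1.5-fold limits drawn as dotted lines, 7 to the right and 9 to the left, from Kcng2 at -2.54 to Kcnq5 at 2.18, both in monocyte/macrophage-like cells.

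In tumour-like cells the A-type pore Kcnd2 was lower under the knockout label, at 27.6 CPM (25.4 to 29.9) and 7.105 CPM (6.21 to 8.09), a log2 ratio of -1.96 (-2.18 to -1.73). Its level varied with cell state. The Sncaip-marked state had 82.6 and 40.8 CPM and dividing cells 36.1 and 5.73 CPM, the Col2a1-marked state had no UMI in either library, and the Tcim-marked state went the other way, from 3 to 92 UMIs (0.618 to 11.1 CPM). The Sncaip-marked state itself made up 104 of 647 tumour-like cells and 50 of 1050, and with the states weighted alike the log2 ratio of Kcnd2 was -1.14. Dpp6, which binds A-type pores, was also lower, with 42.2 and 22.8 CPM. Kcnmb4 was lower as well, at 8.42 and 3.08 CPM (log2 ratio -1.45, -1.82 to -1.09), and in all 4 states its CPM was lower under the knockout label, though the intervals overlapped in the Sncaip-marked state.

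The other called members of the tumour-like class stand beside markers of other cells. Kcnk13 was lower, at 11.1 and 4.18 CPM (log2 ratio -1.41, -1.73 to -1.10), as were Kcnj10 at 4.30 and 2.12 CPM (-1.02, -1.50 to -0.55), Kcnh7 at 3.70 and 1.96 CPM (-0.91, -1.41 to -0.42) and Kcnq5 at 18.4 and 4.02 CPM (-2.19, -2.49 to -1.90). Oligodendrocyte markers summed to 165.4 and 52.38 CPM in this class, 7 of 10 lower and 3 higher by 1.5-fold, and none at 0. Microglia markers summed to 259.4 and 258.2 CPM, and monocyte/macrophage markers to 75.04 and 159.2 CPM, 9 of 14 higher and 2 lower. There were sums of 10.53 and 29.88 CPM for NK cell markers and of 2.901 and 6.575 CPM for neuroblast markers, with Dlx5, Sp8 and Igfbpl1 at 0 under the wild type label. Their part in the results was not tested. With the states weighted alike, Kcnj10 was at -0.27 and Kcnh7 at -0.51, inside the limit, and Kcnq5 at -1.58 (-1.12 under Leiden clusters). Kcnrg, an inhibitor of voltage-gated channel assembly in human cells, was higher at 1.26 and 3.02 CPM (log2 ratio 1.26, 0.63 to 1.93), as were Kcnab1 at 7.86 and 14.2 CPM (0.85, 0.59 to 1.12) and Kcnh4, a pore of the elk family, at 3.18 and 4.80 CPM (0.59, 0.17 to 1.03). The call of Kcnh4 ended with doublets removed (0.57) and under both other scalings (0.58 each). Kcnrg overlaps Dleu2 on the opposite strand, and astrocyte markers summed to 210.1 and 334.9 CPM, with Aqp4 at 0 in both libraries.

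Kcnk2, Kcnt2 and Kcnip3, which tumour-like cells held, were not called between the labels. The rule for holding a gene asks for a level in both libraries, so it favours genes that differ little between them. Kcnk2 had a log2 ratio of -0.27 (-0.40 to -0.15), Kcnt2 of -0.09 (-0.27 to 0.09) and Kcnip3 of -0.15 (-0.27 to -0.04), each inside 1.5-fold together with its interval.

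In monocyte/macrophage-like cells the modifier subunit Kcng2, which forms channels only together with other voltage-gated pores, had 95 UMIs in the first library and 28 in the second. Its level went from 8.34 CPM (6.75 to 10.2) to 1.44 CPM (0.955 to 2.08), 5.8-fold lower, and it was lower in Arg1-marked macrophages too, from 7.57 to 1.75 CPM. Kcnn4 was higher, 18.2 and 27.5 CPM (log2 ratio 0.60, 0.36 to 0.84), most clearly in monocytes, at 17.9 CPM (11.9 to 25.9) and 37.0 CPM (31.0 to 43.8). Kcnn4 lay inside the limit with subsets weighted alike (0.45) and with doublets removed (0.57). Kcnq5 was also higher, from 13 to 101 UMIs (log2 ratio 2.18, 1.35 to 3.14). These levels, 1.14 and 5.18 CPM, were read above as background. With doublets removed Kcnq5 in this class had too few UMIs to be measured, so this call was lost. T cell markers in this class summed to 16.24 and 33.93 CPM and NK cell markers to 152.5 and 109.7 CPM, none at 0. The part of these markers was not tested. In dendritic-like cells Kcnq5 was lower, 15.9 and 7.42 CPM (log2 ratio -1.10, -1.71 to -0.50), with 54 of its 61 UMIs under the wild type label in type 1 cells, and Leiden clusters in place of gates turned it to 0.48. NK cell markers there summed to 62.84 and 72.31 CPM, with Ncr1, Klra8, Eomes and Klra7 at 0 in both libraries.

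In T cell-like cells Kcnmb4 was higher under the knockout label, at 7.27 and 12.4 CPM (log2 ratio 0.77, 0.29 to 1.29) and so was Kcnip1, at 3.98 and 7.30 CPM (0.87, 0.22 to 1.58), while Kcnk7 was lower, at 8.65 and 5.31 CPM (-0.70, -1.22 to -0.18). Kcnmb4 stood at 9.36 CPM (4.67 to 16.8) and 18.2 CPM (14.8 to 22.2) in the CD4 subset, which overlapped, and at 6.74 and 7.39 CPM in the CD8 subset. The CD4 subset held 128 of 600 T cell-like cells and 519 of 1533, and with subsets weighted alike Kcnmb4 was at 0.58, inside the limit. Neuroblast-like cells had Kcnip1 at 49.5 and 55.2 CPM and Kcnmb4 at 16.5 and 17.1 CPM. In the T cell-like class neuroblast markers summed to 1.557 and 5.311 CPM, 7 of 9 higher and none lower, tumour markers to 97.94 and 160.4 CPM, 7 of 12 higher and none lower, and NK cell markers to 4461 and 2505 CPM, and their part was not tested. Kcnn4 stayed at -0.01 (-0.14 to 0.13) and Kcnq5 at -0.14 (-0.21 to -0.06). Kcnk5 was at 0.39 (0.11 to 0.68) in the class, and its CD4 subset, given above, did not overlap between the libraries.

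In NK cell-like cells Kcnn4 came closest to the limit, with a log2 ratio of -0.56 (-0.96 to -0.16). It passed the limit under both other scalings (-0.61 and -0.60), with doublets removed (-0.59) and under Leiden clusters (-0.65). Kcnq5 had -0.37 (-0.44 to -0.30). Kcnip3 and Kcnab2 were both at 0.18, with intervals that included no difference.

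Genes that work beside the channels were read from 2 further lists. Of 18 other potassium transport genes, 16 were measured in tumour-like cells, with 4 higher (11.3% of all genes) and none lower (7.05%) under the knockout label. They included the sodium pump subunit Atp1b2, from 9.59 to 23.1 CPM, and the lysosomal potassium channel Tmem175, from 16.0 to 26.9 CPM. In T cell-like cells 13 were measured, and the ATP-gated channels P2rx7, from 21.1 to 41.4 CPM, and P2rx4, from 20.8 to 31.3 CPM, were higher (5.15% of all genes) and none lower (2.44%). P2rx4 was just past the limit at 1.51-fold, and its level in T cell-like cells was 18.6% of the highest other class. Slc12a7, a potassium-chloride cotransporter, was lower in dendritic-like cells, from 18.3 to 8.53 CPM, and in monocyte/macrophage-like cells, from 16.4 to 10.2 CPM, where the sodium-potassium-chloride cotransporter Slc12a2 was higher, from 3.42 to 7.96 CPM. Each was the only call in its direction, of 7 measured in dendritic-like cells (7.62% of all genes higher, 7.83% lower) and 13 in monocyte/macrophage-like cells (7.22% and 5.15%). The Slc12a2 level there was 0.981% of the highest other class. None of the 6 measured in NK cell-like cells passed 1.5-fold (7.28% and 7.95%). Of 13 partner and related genes outside the Kcn symbols, 4 were measured in tumour-like cells. Besides Dpp6, the pacemaker channel gene Hcn2 was lower, from 6.13 to 2.90 CPM, and Amigo1, a partner of voltage-gated pores, higher, from 2.15 to 3.33 CPM. Oligodendrocyte-like cells had far more Hcn2, at 317 and 287 CPM. Oligodendrocyte markers in the tumour-like class summed to 165.4 and 52.38 CPM, 7 of 10 lower and 3 higher by 1.5-fold, and their part was not tested. Dpp6 was higher in monocyte/macrophage-like cells, from 1.58 to 12.8 CPM, and Dpp10 in dendritic-like cells, from 6.52 to 14.1 CPM, each the only one of that list measured there. Microglia-like cells had Dpp6 at 44.9 and 52.7 CPM, and the monocyte/macrophage level was 15.7% of the highest other class. Microglia markers in the monocyte/macrophage-like class summed to 505.4 and 713.5 CPM, 6 of 9 higher and 1 lower by 1.5-fold and none at 0, and their part was not tested. No gene of the partner list was measured in T cell-like or NK cell-like cells.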

How the data were processed

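The authors deposited raw UMI counts as 2 sparse matrices. Per the file headers they come from Cell Ranger 7.1.0. Per the submitters' processing notes mm10 and Seurat 5.0.2 were used, with no role given. The reference combined human and mouse genes, and mouse genes were used. Kept barcodes had 500 genes or more and a mitochondrial share up to 10%, which left 42.1% of 7382 and 78.6% of 8369. Gene positions came from GENCODE M21 on the same build, and upstream sequences from RefSeq on GRCm38.p6.

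A marker counted as positive at 1 UMI per 10000. A barcode took the class with the highest share of positive markers, given at least 3 and 25% of the list, and was left out (143 and 415) if another class reached 60% of that share, except that microglia and monocyte/macrophage went to the higher one. A further 127 and 249 barcodes met no class. This scoring rule was set after the data were seen. Doublets were not called in the main analysis. As an alternative, the highest Scrublet scores were removed at 0.8% per 1000 barcodes, 77 (2.476%) and 346 (5.262%), since the automatic threshold marked 9 and 164.

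UMIs were summed per class and library. Levels have exact Poisson intervals, and ratios exact intervals conditional on the summed counts. Pairs with 100 UMIs were called at 1.5-fold. The genes named are the leading members of each class and every member called between labels. Subset values and the members shown for contrast were chosen after their values were seen. Members and lists were chosen with earlier results of these data known. Intervals used scipy 1.17.1 with numpy 2.4.6 and pandas 2.3.3 in Python 3.11.15, clusters scanpy 1.11.5 with leidenalg 0.10.2, and plots matplotlib 3.10.9. A few genes are counted but not reported here. The interval script was tested on simulated data.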

Additional observations from a re-analysis of the deposited data

How the results depend on the processing

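With 1 library per group the values describe these libraries. The 7 higher and 9 lower pairs became 4 higher with Scrublet doublets removed, 4 and 4 at 200 UMIs or more, and 2 higher at 2-fold. At the other settings run, the counts were 5 to 10 higher and 7 to 11 lower. The reversal was Kcnq5 in dendritic-like cells, at a log2 ratio of 0.48 under Leiden clusters, where its lower call ended. Kcnq5 in tumour-like cells was at -1.12 under Leiden clusters and at -1.58 with states weighted alike. Kcnh4 in tumour-like cells fell just inside the limit under both scalings (0.58 each) and with doublets removed (0.57), as did Kcnn4 in monocyte/macrophage-like cells with doublets removed (0.57). The remaining higher call lost with doublets removed was Kcnq5 in monocyte/macrophage-like cells, which then had too few UMIs to be measured. The same held for the lower call of Kcnq5 in dendritic-like cells. Kcnn4 in NK cell-like cells passed it under both scalings (-0.61 and -0.60), with doublets removed (-0.59) and under Leiden clusters (-0.65), and Kcnk6 in monocyte/macrophage-like cells passed it under Leiden clusters (-0.69) and Kcnn4 in tumour-like cells with doublets removed (-0.61). The cause of these moves was not tested.

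Among host cells showing Y-linked but not Xist UMIs, 16 of 27 host pairs could be measured, with 3 higher and 3 lower against 4 and 3 before, and 10 of the 16 moved out of the counting interval of the full class. Kcnn4 in monocyte/macrophage-like cells was the only pair called both times, and the other 5 calls were new. In monocyte/macrophage-like cells Kcnk6 was then at -1.43, Kcnj10 at -1.23, Kcnq1ot1 at -0.86 and Kcnn4 at 1.19. In NK cell-like cells Kcnip3 was at 0.98. In dendritic-like cells Kcnk6 was at 0.59, with an interval that included no difference (-0.019 to 1.16). Under the knockout label the NK class then had 76 cells and the dendritic class 44, fewer than the 100 asked for in the main comparison. Kcnk5 in T cell-like cells was at -0.13.

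The 39 pairs of gene and class held became 30 under Leiden clusters, 34 at 10 CPM, 40 with doublets removed and 39 at 200 detected genes. Over all kept cells, tumour cells included, Cacna1h had a log2 ratio of 2.74, with 2.74 to 3.31 under the alternatives run. No paired analysis was possible because each group has 1 library and the labels carry no replicate numbers, so leaving out a replicate was not possible either.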
